A study of Mus musculus with 3 samples.

Results

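Fibroblast growth factor (FGF) ligands and their receptors were followed across 3 culture media in explants of embryonic mouse kidney. The group held 10 genes of 19938 measured: the 6 ligand genes Fgf1, Fgf7, Fgf8, Fgf9, Fgf10 and Fgf20 and the 4 receptor genes Fgfr1, Fgfr2, Fgfr3 and Fgfr4. They were chosen by gene symbol, and each was represented by the probe set, annotated to that symbol alone, with the highest mean over the arrays. All 10 had exactly 1 such probe set. The explants were whole kidneys of C57BL/6 mouse embryos at embryonic day 11.5, laid on porous filters and cultured for 48 h. One group was kept in serum-free DMEM, a basal culture medium, with retinoic acid added (retinoic acid); one in serum-free DMEM alone (serum-free); and one in DMEM with 10% fetal bovine serum (serum). No allele or transgene is named for any group, and the sources used here do not give the dose of retinoic acid, the number of kidneys pooled or the sex of the embryos. Each medium was read on 1 Mouse Gene 1.0 ST array (Affymetrix), so there were 3 arrays, no replicates, and neither an error nor a test for any difference below.

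FGFs are secreted signals that bind receptor tyrosine kinases together with heparan sulfate, a sugar chain of the cell surface and matrix, and so switch on the ERK kinase cascade. In the developing kidney, ligands such as FGF9 and FGF20 keep nephron progenitors alive and undifferentiated, and FGF8 is needed by the pretubular aggregates that form the first nephron epithelium. FGF7 and FGF10, made by mesenchyme, act through FGFR2 on the branching ureteric bud.

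None of the 10 genes differed by 2-fold between any pair of media. Values are given as log2 of the deposited intensity, and a difference of 1 on that scale is 2-fold. A call needed a difference of 2-fold or more and a higher value that reached a floor of 7.12, the median of all gene-level values. By this rule 0 of the 8 members at or above the floor differed in retinoic acid against serum-free, where 1.66% of 10111 genes did. In serum-free against serum it was 0 of 8, with 1.58% of 10156 genes called, and in retinoic acid against serum 0 of 8, with 1.86% of 10169 genes called. Shares of genes are over those at or above the floor in the pair compared. A count of 0 among 8 genes lies near these shares and is no result about the group. At 1.5-fold the count was also 0 in all 3 comparisons, against 4.35%, 4.08% and 5.30% of genes in the same order.

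Over the arrays, 7 members were at or above the floor in all 3 media, Fgf1 in 2 media, and Fgf7 and Fgfr3 in none. Levels of different probe sets depend on their probes and are not compared between genes. The array measures whole genes, so the epithelial and mesenchymal splice forms of the receptors, which bind different ligands, were not told apart.

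The explants carried markers of kidney. All 9 nephron progenitor markers and all 6 measured stroma markers were at or above the floor in each medium, and all 8 measured ureteric bud markers were in at least 1. Markers of other cell types were read beside them. All 8 macrophage markers were at least 2-fold higher in serum-free medium than in serum, where 0.876% of genes were. With retinoic acid against serum-free 2 of the 8 were called lower, where 0.613% of genes were, and 2 had differences above 0. The summed intensity of the 8, in which the brightest genes weigh most, was 5344 with retinoic acid, 7395 in serum-free medium and 2328 in serum. The summed intensity of 6 smooth muscle markers was 1724, 3388 and 8430 in the same order, and 4 of the 5 that reached the floor were called lower in serum-free medium than in serum, where 0.699% of genes were. For 7 endothelial markers it was 7162, 8510 and 5997, and 0 of the 7 differed by 2-fold in any comparison, where 1.58% to 1.86% of genes did. No marker of these lists was at 0. Xist, which female cells transcribe from their silenced X, was at 9.79 with retinoic acid, 11.48 in serum-free medium and 10.84 in serum, while the Y-linked gene Eif2s3y was at 8.64, 7.46 and 8.38, so the mix of male and female embryos cannot be told apart from the medium. The part of these marker and sex gene values in the FGF values was not tested. In bulk RNA, fewer cells of a type and less RNA per cell cannot be told apart.

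Of the ligands, Fgf9 varied most. It encodes a ligand made in the ureteric bud and the nephron progenitors. Its log2 intensity was 8.30 with retinoic acid, 7.81 in serum-free medium and 8.11 in serum. The serum-free array was the lowest and the retinoic acid array the highest. Retinoic acid against serum-free gave a difference of 0.50 (1.41-fold), serum-free against serum one of -0.30, and retinoic acid against serum one of 0.20. In the first of these, 5.61% of the 10111 genes at or above the floor differed by as much or more in either direction. The first and second comparisons share the serum-free array, so a low value there enters both with opposite sign.

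Fgf10, which encodes a mesenchymal ligand that acts on epithelial FGFR2, had its highest value where Fgf9 had its lowest. It was at 8.28 with retinoic acid, 8.56 in serum-free medium and 8.29 in serum. The difference was -0.28 for retinoic acid against serum-free, which 11.9% of genes matched or passed in size. Serum-free against serum gave 0.27, and retinoic acid against serum gave -0.01. The retinoic acid and serum arrays were thus nearly level for Fgf10, and the serum-free array stood above both.

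The 250 bases before the annotated starts of these 2 genes are shown because they had the largest ranges among the members at or above the floor. They are RefSeq sequence of build GRCm38.p6, from the plus strand, with capitals marking the half-sites of retinoic acid receptors that were searched on both strands (AGGTCA, the form GGGTCA and the form AGTTCA, each allowed to overlap another). Fgf9 lies at chr14:58072436-58072685 and Fgf10 at chr13:118714449-118714698.
Fgf9: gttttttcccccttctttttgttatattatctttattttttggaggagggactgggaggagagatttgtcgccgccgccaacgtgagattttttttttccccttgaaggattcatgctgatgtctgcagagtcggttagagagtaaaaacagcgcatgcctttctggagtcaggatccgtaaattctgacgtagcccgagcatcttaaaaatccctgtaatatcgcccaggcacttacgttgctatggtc
Fgf10: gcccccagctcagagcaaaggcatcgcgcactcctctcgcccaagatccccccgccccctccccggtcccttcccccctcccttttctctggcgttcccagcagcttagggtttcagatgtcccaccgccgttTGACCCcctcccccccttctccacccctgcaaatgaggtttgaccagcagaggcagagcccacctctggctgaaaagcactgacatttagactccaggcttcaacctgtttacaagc
The Fgf10 stretch held 1 half-site, GGGTCA on the opposite strand, 117 bases before the start, and the Fgf9 stretch held none of the 3 motifs. Of 32851 such stretches before RefSeq starts, 32.9% held at least 1 of the motifs, 14.0% AGGTCA, 11.6% GGGTCA and 11.8% AGTTCA. Promoters of 6 members, in 7 stretches, were matched by gene identifier, and 3 of the 7 held a half-site: those of Fgf10, Fgf7 (AGGTCA) and Fgfr2 (AGTTCA). Fgf7 had equal values in all media and Fgfr2 a range of 0.17. A match of 6 letters is a description of the sequence, not a binding site.

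**Figure D1:**
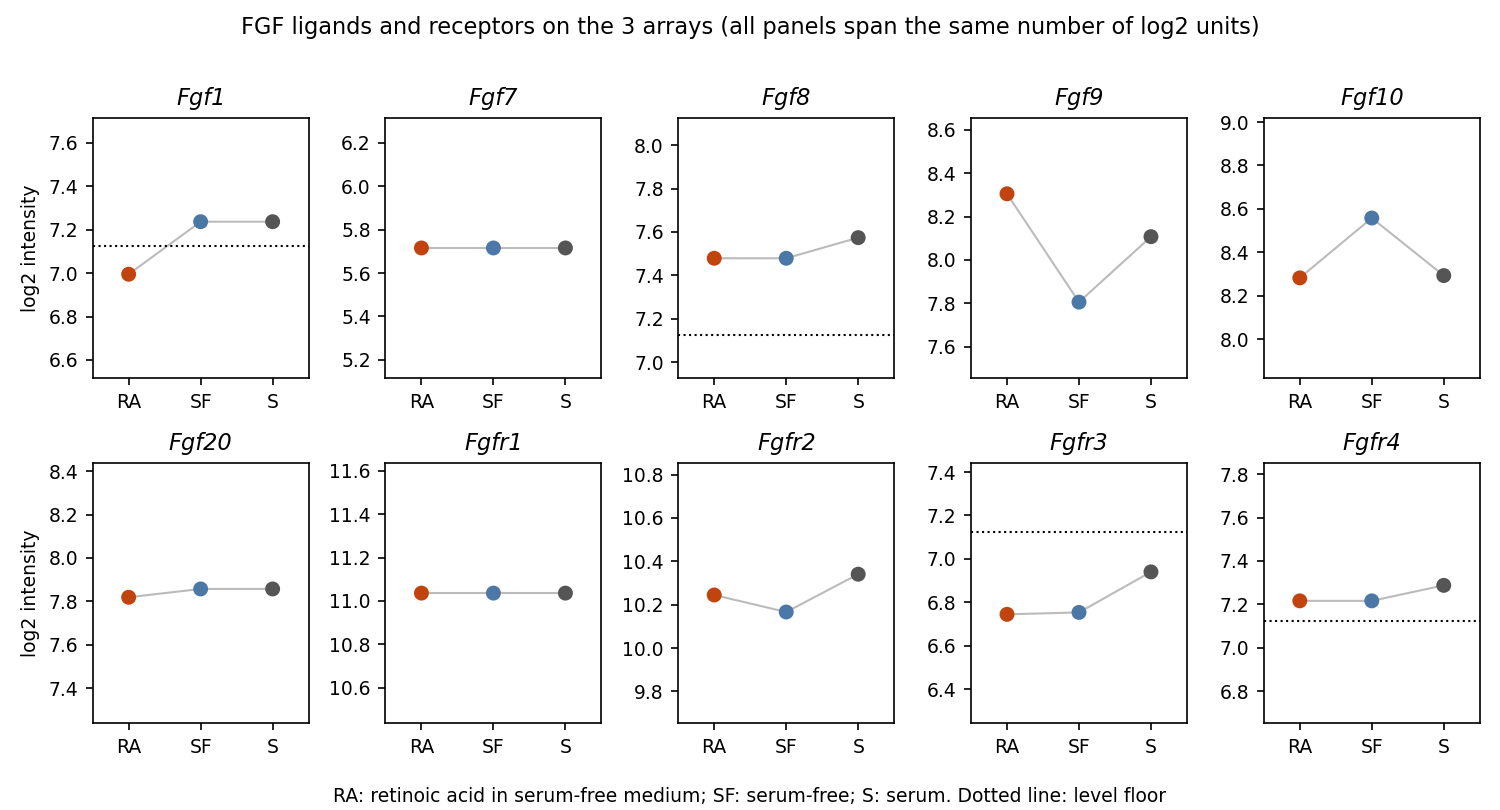
Log2 intensity of each of the 10 genes (vertical axis, every panel spanning the same number of log2 units) with retinoic acid in serum-free medium (RA), in serum-free medium (SF) and in serum (S), 1 array each. Fgf9 is highest with retinoic acid at 8.30 and Fgf10 in serum-free medium at 8.56, while Fgf7 and Fgfr1 have the same value on all 3 arrays.

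The other 4 ligands had smaller ranges. Fgf1, which encodes a ligand that binds all FGF receptors, was at 6.99 with retinoic acid and at 7.24 in both serum-free medium and serum. Only the retinoic acid array was lower, by 0.24 against each of the others, and its value lay under the floor. Fgf20, a ligand gene of nephron progenitors, was at 7.82 with retinoic acid, 7.86 in serum-free medium and 7.86 in serum, a range of 0.04. Fgf8 was at 7.48 with retinoic acid, 7.48 in serum-free medium and 7.57 in serum. Fgf7, a stromal ligand gene, stood at 5.72 on each array, under the floor, where background makes up more of an intensity.

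Among the receptors no difference exceeded 0.20 in size. Fgfr1, whose product is needed with FGFR2 in the kidney mesenchyme, was at 11.04 on all 3 arrays. Fgfr2, the main receptor of the ureteric bud, was at 10.24 with retinoic acid, 10.17 in serum-free medium and 10.34 in serum, with differences of 0.08 (retinoic acid minus serum-free), -0.17 (serum-free minus serum) and -0.10 (retinoic acid minus serum). Fgfr3 was at 6.74, 6.75 and 6.94 in the same order of media, under the floor throughout. Fgfr4 was at 7.22 with retinoic acid, 7.22 in serum-free medium and 7.29 in serum. For Fgfr2, Fgfr3 and Fgfr4 the serum array was the highest, by 0.20 or less.

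Exactly equal values need care. Median polish, the step of RMA that summarises the probes of a probe set, can return the same number for a pair of arrays; its part in the equal values here was not tested. Of the 10 members, 4 had equal values in retinoic acid and serum-free medium, as did 51.6% of all genes. In serum-free medium and serum it was 4 of 10, against 45.4% of genes, and with retinoic acid and serum 2 of 10, against 46.5%. Fgf7 and Fgfr1 were equal on all 3 arrays, as were 38.4% of genes. An equal value is not taken here to show equal expression.

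The median difference over the 10 genes was 0.00 when retinoic acid was set against serum-free medium, -0.04 when serum-free medium was set against serum, and -0.05 between retinoic acid and serum, and over all genes it was 0.00 in each. The median absolute difference of the 8 members at or above the floor was 0.06, 0.08 and 0.08 in that order, beside 0.03, 0.06 and 0.07 for all genes at or above the floor. To set a scale, different probe sets of 1 gene disagreed in their log2 difference by up to 0.28 for retinoic acid against serum-free at the 95th percentile, over 1071 pairs at or above the floor. The Fgf9 difference of 0.50 is larger than that, and the Fgf10 difference of -0.28 is of the same size. This spread is between probe sets read on the same pair of arrays and does not cover differences between cultures.

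**Figure D2:**
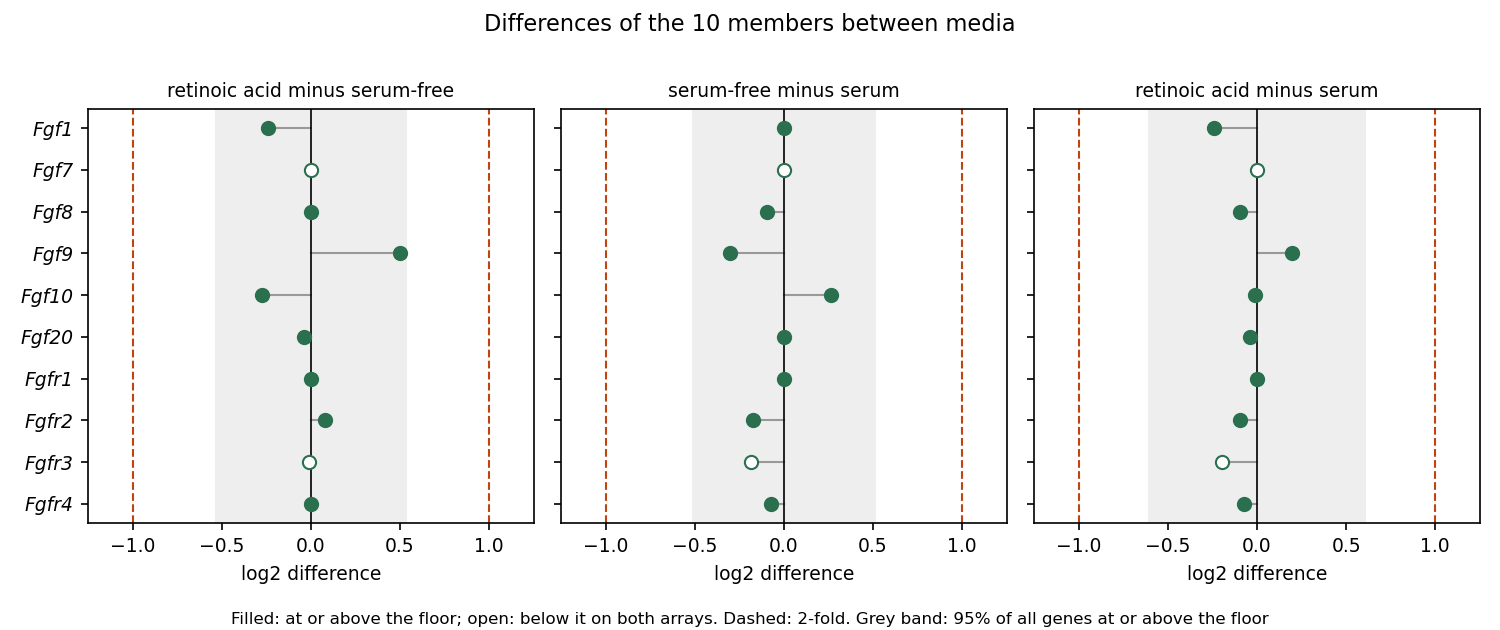
Log2 difference (horizontal axis) of each of the 10 genes in the 3 comparisons, with filled points for genes at or above the floor in the pair compared and open points for those below it. No point reaches the dashed 2-fold lines, and all lie inside the grey band that holds 95% of all genes at or above the floor, the farthest being Fgf9 at 0.50 for retinoic acid against serum-free.

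Some genes that mark the cells in which these ligands and receptors are known to act passed 2-fold on the same arrays. In serum-free medium 6 of 8 markers of the pretubular aggregate and early nephron were at least 2-fold lower than in serum, where 0.699% of genes were, with a median difference of -1.12. With retinoic acid 4 of the 8 were called higher than in serum-free medium, where 1.05% of genes were. On the serum-free array Lhx1, Dll1, Papss2 and Bmp2 were under the floor, so the sizes of their differences against it are uncertain. Lhx1, a transcription factor gene of these aggregates that depends on Fgf8 in the mouse, was at 8.07 with retinoic acid, 6.79 in serum-free medium and 8.71 in serum. Wnt4, the nephron inducer that also depends on Fgf8, was at 8.92, 7.49 and 8.92 in that order. Both were lowest on the serum-free array. Fgf8 itself had equal values with retinoic acid and in serum-free medium, which is not taken to show equal expression. It differed by -0.09 on the loss of serum. The part of Fgf8 in the values of Lhx1 and Wnt4 was not tested.

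Of 9 nephron progenitor markers, 7 had differences below 0 and 2 above 0 for retinoic acid against serum-free, with a median of -0.50. Of these, 1 was called lower and 1 higher, where 0.613% and 1.05% of genes were. The coactivator gene Cited1 was at 8.30 with retinoic acid and 10.44 in serum-free medium, a difference of -2.13, and the homeobox gene Meox1 was at 10.00 and 8.19, a difference of 1.81. Six2, which keeps progenitors undifferentiated, was at 10.39 with retinoic acid, 11.25 in serum-free medium and 11.03 in serum, which is not 2-fold. The values of Osr1, Eya1 and Crym were -0.97, -0.50 and -0.50 in retinoic acid against serum-free. In the same comparison Fgf20 stood at -0.04 and Fgf9 at 0.50. Gdnf, the mesenchymal ligand of the RET receptor, differed by -0.15.

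Of 8 ureteric bud markers 7 reached the floor, and 2 of these were called higher with retinoic acid than in serum-free medium, where 1.05% of genes were. They were the calcium-binding protein gene Calb1 by 2.18 on the log2 scale and the receptor gene Ret 2.83-fold. Calb1 and Ret were also the 2 that were at least 2-fold lower in serum-free medium than in serum, at -1.94 and -1.16, where 0.699% of genes were. All 8 markers had differences below 0 in serum-free against serum, with a median of -0.49. For retinoic acid against serum-free, 6 of the 8 had differences above 0 and 2 below, with a median of 0.26. Those below 0 were Gata3 at -0.48 and Wnt7b at -0.17, Wnt7b under the floor in both media. The value of Gfra1, the RET co-receptor gene, was 0.89 for retinoic acid against serum-free and -0.75 for the loss of serum. The value of Wnt11, a tip gene downstream of RET, was 7.85 with retinoic acid, 7.52 in serum-free medium and 8.19 in serum. Fgfr2, whose product shares ERK signalling with RET in the bud, differed by 0.08 and -0.17 in those comparisons. Of 6 stroma markers 0 differed by 2-fold in any comparison, where 1.58% to 1.86% of genes did, so the count lies near these shares. For retinoic acid against serum-free 4 of the 6 had differences above 0 and 2 below, from -0.68 for Pdgfrb to 0.45 for Tcf21. Foxd1, the marker of stroma progenitors, was at 9.51, 9.43 and 9.66 with retinoic acid, in serum-free medium and in serum. The mesenchymal ligand genes Fgf7 and Fgf10 differed by 0.00 and -0.28 for retinoic acid against serum-free, Fgf7 with equal values under the floor.

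**Figure D3:**
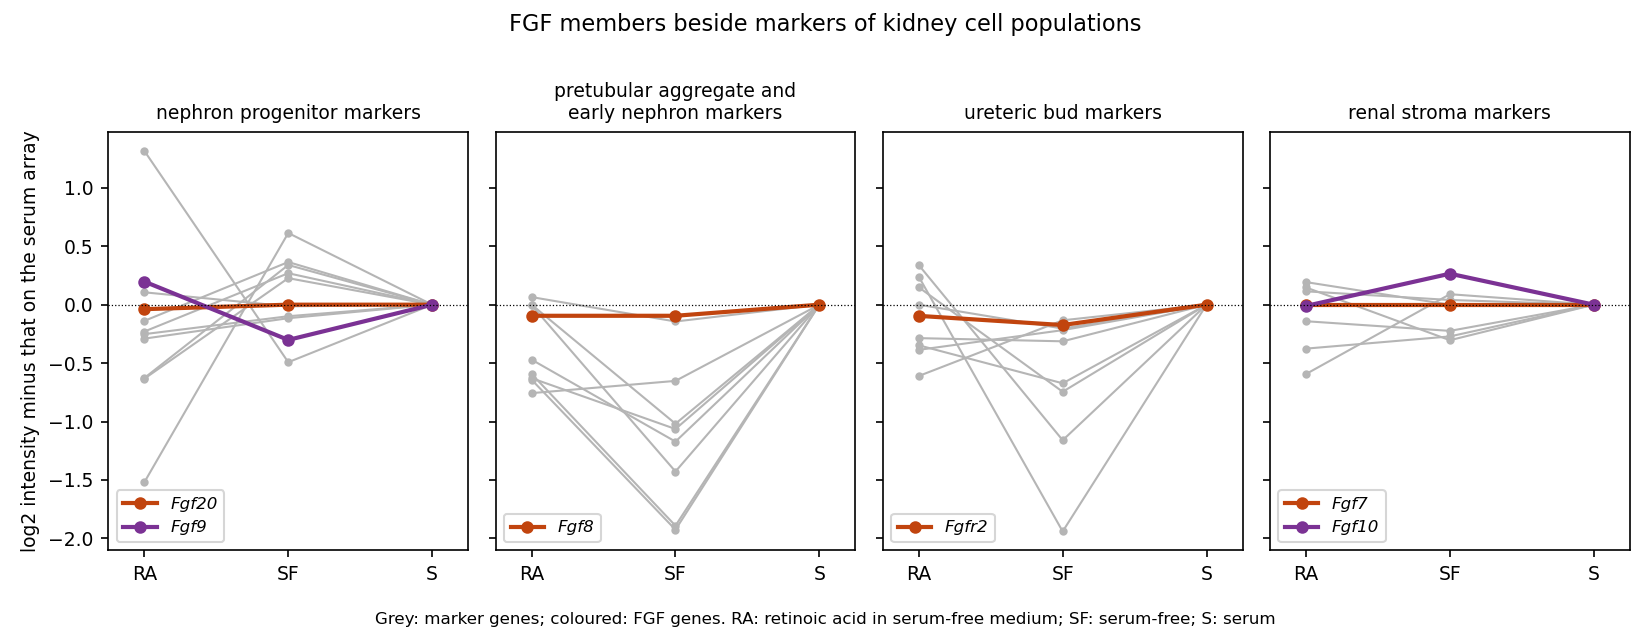
Log2 intensity minus that of the same gene on the serum array (vertical axis) with retinoic acid (RA), in serum-free medium (SF) and in serum (S), for markers of 4 kidney cell populations in grey and FGF genes in colour. Most early nephron markers dip on the serum-free array, Lhx1 by 1.93 below serum to a value under the floor. Fgf8 differs by -0.09 between serum-free medium and serum. Its equal values with retinoic acid and in serum-free medium are not taken to show equal expression.

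Another 68 genes of the pathway were measured, in 4 lists. With retinoic acid against serum-free, 50 of them were at or above the floor, and 2 were called higher and 1 lower, where 1.05% of the 10111 genes at or above the floor were higher and 0.613% lower. In serum-free medium against serum 0 of 49 were higher and 0 lower, where 0.876% and 0.699% of 10156 genes were. With retinoic acid and serum compared, 1 of 51 was higher and 0 were lower, where 1.04% and 0.816% of 10169 genes were. The median difference over the 68 genes was 0.00 in each comparison.

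Among 16 other FGF genes, 5 were at or above the floor for retinoic acid against serum-free. Of these, 1 was higher and 1 lower with retinoic acid, where 1.05% and 0.613% of genes were. Fgf15, which encodes an endocrine FGF known for its role in the gut, was at 7.31 with retinoic acid, 5.78 in serum-free medium and 6.79 in serum. It was 2.89-fold higher with retinoic acid than in serum-free medium (1.53), with a value just above the floor set over one below it, so the size is uncertain. Its serum-free and serum values also lay 2-fold apart, but both were under the floor. Fgf12, which encodes an FGF that is not secreted and modulates sodium channels, was at 6.56 with retinoic acid, 7.65 in serum-free medium and 7.28 in serum. It was lower by -1.10 with retinoic acid than in serum-free medium, and at -0.89 with 32 added to all intensities it no longer reached 2-fold. The values of Fgf11 and Fgf2 followed, Fgf11 at 0.50 for retinoic acid against serum-free and Fgf2 at -0.57 on the loss of serum. Of the 16, 10 were below the floor on every array.

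The co-receptor and adaptor list held 14 measured genes, 10 of them at or above the floor. For retinoic acid against serum-free 1 of the 10 was called, where 1.66% of genes were. For retinoic acid against serum 1 was called, where 1.86% of genes were, and for serum-free against serum 0, where 1.58% were. Flrt1, which encodes a membrane protein that binds FGF receptors, was at 8.74 with retinoic acid, 7.26 in serum-free medium and 7.53 in serum. The retinoic acid array stood apart, with Flrt1 2.78-fold higher than in serum-free medium and 2.30-fold higher than in serum. Its relatives Flrt2 and Flrt3 had differences of 0.68 and 0.83 for retinoic acid against serum-free, under 2-fold but past 1.5-fold. Fgfrl1, an FGF receptor without a kinase domain that nephron formation requires in the mouse, was at 9.31 with retinoic acid, 9.26 in serum-free medium and 9.47 in serum. The co-receptor genes Kl and Klb for endocrine FGFs stood at 4.87 and 4.59 on each array, under the floor, and the adaptor genes Grb2, Sos1, Ptpn11 and Plcg1 and the docking gene Gab1 differed by at most 0.11 in any comparison. Frs2, the main FGF receptor adaptor, was not analysed here.

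Of 16 feedback inhibitors and targets, 15 at or above the floor, 0 differed by 2-fold in any comparison, where 1.58% to 1.86% of genes did. A count of 0 among 15 genes lies near these shares and is no result about the list. The ETS factor genes Etv4 and Etv5 are induced by FGF and also by RET signalling in the bud tip. Both were lower in serum-free medium than in serum, with differences of -0.58 and -0.40. For retinoic acid against serum-free Etv4 was at 0.51 and Etv5 at -0.03, with a second Etv5 probe set at 0.12. Etv4 was at 8.57 with retinoic acid, 8.07 in serum-free medium and 8.65 in serum, and Etv5 at 9.91, 9.94 and 10.34. Spry1, which encodes a Sprouty inhibitor that limits RET signalling in the bud, was at 10.73, 10.25 and 10.90 in that order, with -0.65 for serum-free against serum. The Sprouty genes Spry2 and Spry4 had the opposite sign with retinoic acid against serum-free, at -0.55 and -0.57, where Spry1 was at 0.47. Dusp6, which encodes the ERK phosphatase most used as an FGF readout, was at 10.34 with retinoic acid, 10.37 in serum-free medium and 10.37 in serum. Ccnd1 (cyclin D1) was at 11.59, 11.75 and 12.17 in the same order.

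Genes of heparan sulfate and its core proteins were measured for 22 of 23 listed, 20 of them at or above the floor. In any comparison 0 differed by 2-fold, where 1.58% to 1.86% of genes did, so the count lies near these shares. The perlecan gene Hspg2 was at 9.43 with retinoic acid, 8.77 in serum-free medium and 8.65 in serum, with 0.66 for retinoic acid against serum-free. Hs3st3b1, a sulfotransferase gene, was at 8.03, 7.58 and 8.31, with -0.72 for serum-free against serum, and the value of its relative Hs3st3a1 was -0.85, below the floor in both media. Of the cell surface core proteins, the glypican gene Gpc3 was at 12.68, 12.42 and 12.56 and the syndecan gene Sdc3 at 9.58, 9.81 and 9.40 with retinoic acid, in serum-free medium and in serum.

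**Figure D4:**
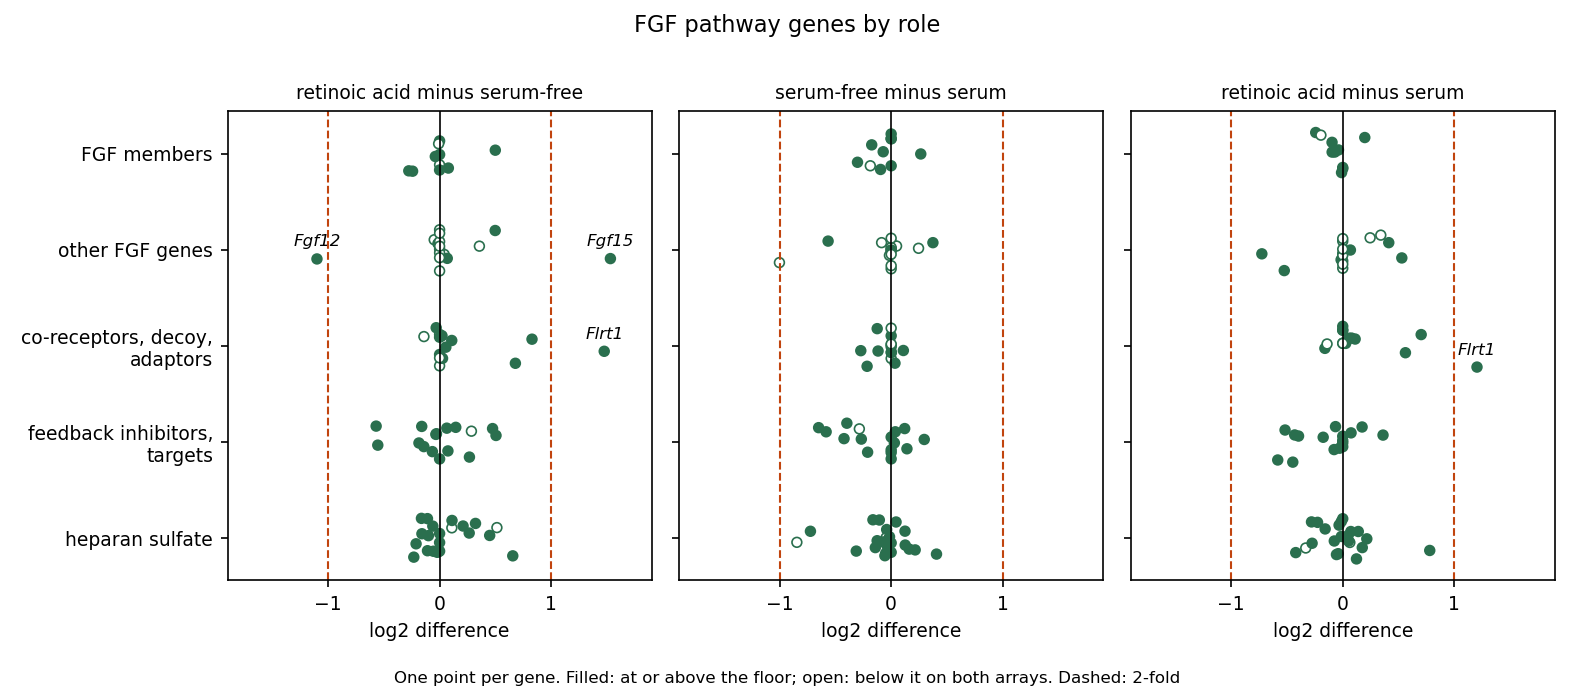
Log2 difference (horizontal axis) of the 10 FGF genes and of 4 lists of pathway genes in the 3 comparisons, 1 point per gene, filled where the gene was at or above the floor in the pair compared. Flrt1 at 1.48, Fgf15 at 1.53 and Fgf12 at -1.10 pass the dashed 2-fold lines for retinoic acid against serum-free, and Flrt1 at 1.20 for retinoic acid against serum.

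The genes most like Fgf9 over the 3 arrays, by the distance between profiles centred on their own means, were Celf4 (distance 0.02), Acyp2 (0.03) and Fut8 (0.03), and those most like Fgf10 were Atp6v0e2, Dnajb5 and Plec (0.01 each). With only 3 arrays many genes come this close. Of 9974 genes compared, 41 lay within 0.1 of Fgf9 and 143 within 0.1 of Fgf10.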

How the data were processed

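The authors deposited 1 linear intensity per probe set and array, from 3.84 to 17250, made with Affymetrix Expression Console 1.1 and RMA (background subtraction, quantile scaling, median polish), per the submitters' processing notes. The labels' protocols give 250 ng of total RNA per sample. Genome build and RMA settings were not given in the sources used here. Median intensities were 84.7 (retinoic acid), 85.5 (serum-free) and 81.5 (serum). The number of arrays limits the precision.

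Values were taken to log2 as deposited, without pseudocount or rescaling. Among 35556 probe sets, 21789 had 1 symbol in the platform annotation, 1621 several and 12146 none. Those with 1 symbol gave 19938 genes, each by its probe set with the highest mean. No probe set with several symbols held a member, and all 10 member symbols matched RefSeq (GRCm38.p6). With 1 array per medium no p-value was computed. The size rule was tested on simulated probes. Members and lists were chosen with earlier results of these data known. Named genes were all members, fixed pathway, kidney and sex genes, and, per list and comparison, those past 2-fold and up to 4 with the largest differences, given in part. Alternatives were 32 added to intensities, median centring, cyclic loess (limma 3.58.1), other floors, the mean of probe sets, and a 1.5-fold rule.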

Additional observations from a re-analysis of the deposited data

How the results depend on the processing

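The count of FGF ligands and receptors past 2-fold was 0 in all 3 comparisons under each of the 7 alternatives. Part of this was fixed in advance. With 1 probe set per member, the mean of probe sets returned the main values. With no member difference above 0.50 in size, a lower floor could not add a call. The members' 120 recomputed log2 differences, under 4 alternatives with the mean of probe sets among them, moved by at most 0.05. For Fgf9 the difference of retinoic acid against serum-free ranged from 0.45 to 0.51. With a 1.5-fold rule the pathway lists held 6 genes past it for retinoic acid against serum-free in place of 3. For serum-free against serum they held 2 (Hs3st3b1 and Spry1) in place of 0, and for retinoic acid against serum 4 in place of 1. At 1.5-fold the shares of all genes were 4.35%, 4.08% and 5.30% in that order of comparisons. With no floor, or with the floor at the 25th percentile (5.26), Fgf15 made the count for serum-free against serum 1. With 32 added to the intensities the first count was 2, without Fgf12. No paired analysis was possible because each medium had 1 array. Signal close to background limits what can be said of Fgf7, Fgfr3, Fgf1 and Fgfr4.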

Other observations

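Other gene groups of the explants, outside the FGF pathway, were read on the same arrays. Of 6 measured genes of neurons and glia, 5 of them at or above the floor, 2 were called lower with retinoic acid than in serum-free medium, where 0.613% of genes were. The noradrenaline enzyme gene Dbh was at 7.17 with retinoic acid, 9.30 in serum-free medium and 8.21 in serum, and the tyrosine hydroxylase gene Th at 6.10, 7.60 and 6.69. Over the 6 genes, 4 differences of retinoic acid against serum-free were below 0, 1 above 0 and 1 equal. Tubb3 was above 0, at 0.26, and Sox10 was equal, under the floor, so the list did not move as 1 group. Of 2 erythroid genes measured, Alas2 and Slc4a1, 0 differed by 2-fold in any comparison, where 1.58% to 1.86% of genes did. Alas2 was at 7.31 with retinoic acid, 7.31 in serum-free medium and 7.10 in serum.

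Etv5 had a second probe set, which differed by 0.12 for retinoic acid against serum-free where the first differed by -0.03. For serum-free against serum the values were -0.56 and -0.40, so that sign was shared. Il17rd, an FGF feedback inhibitor, differed by 0.22 and 0.07 on its probe sets for retinoic acid against serum-free, the first of these below the floor.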
